A study of Mus musculus with 11 samples.

Results

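The epithelial junction genes described here are 10 genes whose proteins hold neighbouring epithelial cells together or fix them to the layer beneath. They are the claudins Cldn3, Cldn4, Cldn7 and Cldn18, the tight junction genes Ocln and Tjp1, and the adhesion genes Cdh1, Epcam, F11r and Bcam. They were taken by name from a list of such genes, and each of the 10 had 1 probe set, among the 14351 genes that could be named. Of the 10, 9 were bright enough to test, among 8085 genes tested, and Cldn4 was not.

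RNA came from lungs of Balb/c mice, either with both Eif4ebp1 and Eif4ebp2 knocked out (4ebp1-/-/4ebp2-/-, knockout below) or wild type (WT), all moved to the purified AIN-93M diet at 5 weeks of age. Eif4ebp1 and Eif4ebp2 encode 4E-BP1 and 4E-BP2, which bind the cap-binding factor eIF4E and restrain cap-dependent translation. The 4 groups were polysomal RNA of knockout lung (3 arrays), polysomal RNA of wild-type lung (2 arrays), total RNA of knockout lung (3 arrays) and total RNA of wild-type lung (3 arrays). Polysomal RNA was the pool of gradient fractions 7 to 10 of 10, which holds messages carrying at least 3 ribosomes. The knockout is of the whole animal. Knockout mice were given to the submitters and wild-type mice were bought, so the source of the mice and the genotype cannot be told apart. The labels do not say that each array is a different mouse, and p-values therefore measure the spread between arrays, which may be partly technical. Values are on a log2 scale, so a difference of 1 is a doubling. Levels of different probe sets are not compared with each other, because probes differ in brightness for the same amount of RNA.

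Tight junctions seal the space between epithelial cells near their upper surface. Claudins set which ions pass, occludin (Ocln) is a further membrane strand protein, and ZO-1 (Tjp1) is the scaffold beneath that ties both to actin. E-cadherin (Cdh1) forms the adherens junction just below, and EpCAM (Epcam) is an adhesion protein of epithelial cells that binds claudin-7 and protects it from breakdown. JAM-A (F11r) is an immunoglobulin-type adhesion protein of the tight junction, also found in endothelium and blood cells, and Bcam is a laminin receptor that attaches cells to basement membrane. In the alveolus this barrier keeps fluid out of the air space, and claudin-18 is a claudin characteristic of lung alveolar epithelium.

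The start regions of 5 of the genes are printed because the results compare their levels in polysomal and total RNA. The 5′ end of a message is where cap-dependent initiation begins, and whether these regions bear on the levels was not tested. Both RNA kinds were labelled from 100 ng, so a polysomal minus total difference is relative. It does not measure the share of a message on polysomes. Cldn3 and Epcam were far higher in polysomal RNA, Bcam gave a signal only there, Tjp1 was lower there in wild type, and Cldn4 gave no signal on any array. Each line runs 5′ to 3′ from 100 bases before the RefSeq start to 20 bases after it (RefSeq, GRCm38.p6), and capitals mark the first 20 transcribed bases.
Cldn3 (chr5:134986114-134986233, plus strand): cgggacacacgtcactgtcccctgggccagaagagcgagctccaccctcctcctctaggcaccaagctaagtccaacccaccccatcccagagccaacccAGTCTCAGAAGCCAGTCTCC
Epcam (chr17:87635879-87635998, plus strand): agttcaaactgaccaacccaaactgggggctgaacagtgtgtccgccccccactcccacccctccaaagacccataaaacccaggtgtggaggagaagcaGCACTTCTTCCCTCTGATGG
Bcam (chr7:19770513-19770632, minus strand): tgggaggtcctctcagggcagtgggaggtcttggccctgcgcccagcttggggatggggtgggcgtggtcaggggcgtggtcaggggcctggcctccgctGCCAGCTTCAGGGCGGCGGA
Tjp1 (chr7:65371225-65371344, minus strand): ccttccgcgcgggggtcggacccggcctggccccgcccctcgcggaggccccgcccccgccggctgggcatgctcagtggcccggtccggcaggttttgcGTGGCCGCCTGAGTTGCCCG
Cldn4 (chr5:134946915-134947034, minus strand): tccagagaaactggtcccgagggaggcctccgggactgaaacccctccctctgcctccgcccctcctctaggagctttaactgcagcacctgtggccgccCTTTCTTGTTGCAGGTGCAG
Of the 10 genes, 9 matched the promoter table, with 12 start sites between them, and Cdh1 had no entry. A C followed by 4 pyrimidines at the very start, as at the beginning of the 5′ terminal oligopyrimidine (TOP) tract of ribosomal protein messages, was found at 1 of the 12 starts, that of Cldn4 printed above, and at 2.51% of 32851 starts in the table. The starts of Cldn3, Epcam, Bcam and Tjp1 did not have these letters in that position. The printed start of Tjp1 lies inside the gene, which reaches upstream to chr7:65527850 in RefSeq, and no start there was searched. The E-box CAGGTG, a sequence bound by the cadherin and claudin repressors of the Snail and Zeb families, was searched on both strands of the 300 bases from 250 before to 50 after each start. It was present at 7 of the 12 starts, those of Cldn3, Cldn4, Ocln, Epcam and F11r and 1 of 2 starts of Cldn7, against 20.2% of all starts. The windows of the Ocln starts overlap and share a CAGGTG site. The 250 bases before the 12 starts held 51.2% to 70.0% GC, against a median of 52.4% over all starts. The share of starts with the E-box was not compared at like GC. Bcam, Tjp1 and Cldn18 had no match in these windows.

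On the knockout arrays Eif4ebp2 averaged 3.86 log2 in polysomal RNA and 2.99 in total RNA, against 5.93 and 4.89 on the wild-type arrays, so the labels held for this gene. Its fall was 2.07 log2 units in polysomal RNA (SE 0.28, limma, Benjamini-Hochberg adjusted p = 0.0025, used for every adjusted p below) and 1.90 in total RNA (SE 0.25, adjusted p = 0.0016). Only its wild-type polysomal mean lay above log2 5, the filter limit for testing, so the filter favoured this fall. Eif4ebp1 averaged 7.19 in polysomal and 7.93 in total RNA of knockout lung, against 7.85 and 8.33 in wild-type lung, and was lower in knockout by the fit (-0.67, SE 0.13, adjusted p = 0.0096, and -0.40, SE 0.11, adjusted p = 0.033). Where its probes lie relative to the deletion is not known here, so this gene does not check the labels. As a floor for the scale, the probe sets left out as dim had medians between 2.30 and 2.35 log2 on polysomal arrays and between 2.34 and 2.49 on total arrays.

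Cldn3, Cldn7, Cldn18, Epcam, F11r and Bcam were higher in polysomal than in total RNA in both genotypes. Ocln and Cdh1 did not pass in either genotype, and Tjp1 was lower in polysomal RNA in wild type and did not pass in knockout. In knockout lung 6 of the 9 tested genes were higher in polysomal RNA, none was lower and 3 did not pass, beside 65.2% of all 8085 genes called, 39.5% higher and 25.7% lower. In wild-type lung 6 were higher, 1 was lower and 2 did not pass, beside 72.4% of all genes called, 44.5% higher and 27.9% lower. Bcam was tested only because of its polysomal values, so its difference was built into the filter, and of the other 8 genes 5 were higher in each genotype. The median difference of these 8 was 1.47 log2 units in knockout and 1.66 in wild type, against 0.13 and 0.22 over all genes. Polysomal and total arrays did not overlap for 8 of the 9 genes in each genotype, which is near the background of 76.1% of all genes in knockout and 82.5% in wild type.

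Cldn3, which encodes a sealing claudin, had 13.02, 13.37 and 13.17 log2 on the knockout polysomal arrays and 13.98 and 13.76 on the wild-type polysomal arrays. On total RNA arrays it had 9.33, 9.80 and 10.14 in knockout and 8.34, 8.52 and 6.96 in wild type. Every polysomal array stood above every total array, and the lowest of all 11 values was wild-type total replicate 3. Polysomal minus total RNA was 3.43 in knockout (SE 0.37, limma adjusted p = 2.3e-05), the 52nd highest of 8085 genes, and 5.93 in wild type (SE 0.41, adjusted p = 8.8e-07), the 14th highest.

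Cldn7, the claudin bound by EpCAM, had 12.32, 12.65 and 12.43 on knockout and 13.24 and 12.93 on wild-type polysomal arrays. Its total RNA values were 9.91, 10.06 and 10.20 in knockout and 9.78, 10.26 and 9.37 in wild type. The RNA kinds were separate and, within polysomal RNA, so were the genotypes, with knockout lower. The polysomal excess was 2.42 in knockout (SE 0.21, adjusted p = 5.4e-06) and 3.28 in wild type (SE 0.23, adjusted p = 9.9e-07).

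Cldn18, the alveolar claudin, varied little within a group. It had 11.93, 11.86 and 11.86 on knockout and 11.88 and 11.96 on wild-type polysomal arrays, against 10.03, 10.28 and 9.78 on knockout and 10.07, 9.77 and 10.03 on wild-type total arrays. Polysomal RNA was higher by 1.86 in knockout (SE 0.13, adjusted p = 1.7e-06) and 1.96 in wild type (SE 0.15, adjusted p = 1.4e-06), and the genotypes overlapped in both RNA kinds.

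Cldn4, a sealing claudin like Cldn3, lies next to Cldn3 on chromosome 5 with no gene between them in the RefSeq table. Its values were 1.42, 1.42 and 1.47 on knockout and 1.59 and 1.42 on wild-type polysomal arrays, and 1.41 to 1.43 on all 6 total arrays. All 11 lay under the floor, so the probe set gave no measurement of Cldn4 in any group. The neighbouring Cldn3 was at 6.96 to 13.98 on the same arrays.

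**Figure D1:**
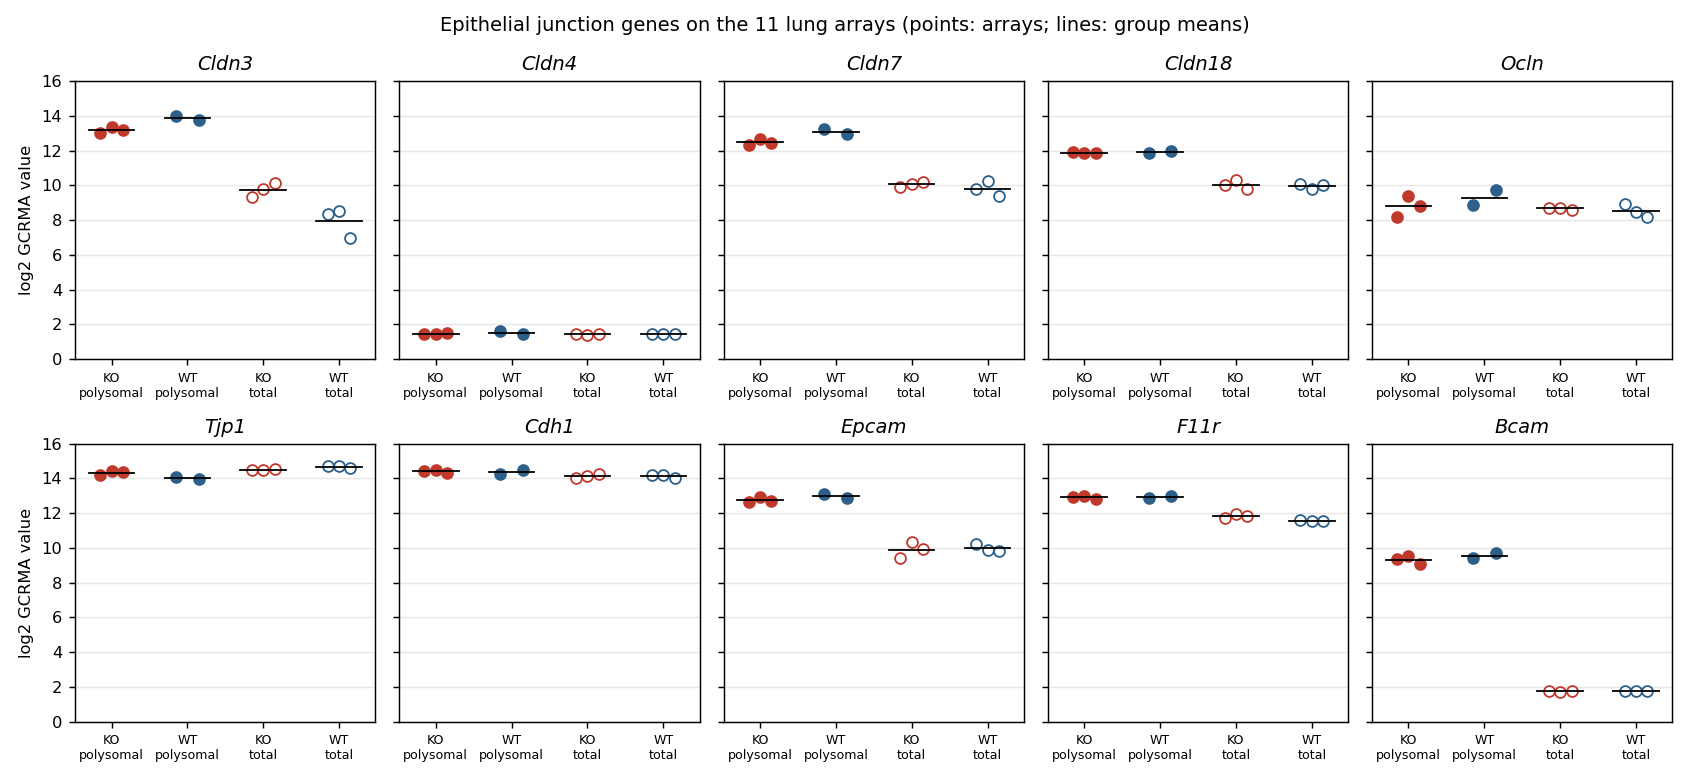
Log2 GCRMA value (vertical axis) of each of the 10 epithelial junction genes on the 11 arrays, by group, where a point is an array and a line a group mean (3 knockout polysomal, 2 wild-type polysomal, 3 knockout total and 3 wild-type total arrays). Bcam lies at 9.07 to 9.71 on polysomal arrays and at 1.73 to 1.76 on total arrays, Cldn4 at 1.41 to 1.59 throughout, and Cldn3 spreads most within wild-type total RNA.

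Ocln and Tjp1, the genes of occludin and its scaffold, were not higher in polysomal RNA by the test in either genotype. Ocln had 8.19, 9.39 and 8.78 on knockout and 8.87 and 9.72 on wild-type polysomal arrays, and 8.72, 8.70 and 8.60 on knockout and 8.93, 8.49 and 8.16 on wild-type total arrays. The polysomal arrays spread over more than 1 log2 unit and overlapped the total arrays, and polysomal minus total RNA did not pass in knockout (0.11, SE 0.32, adjusted p = 0.77) or wild type (0.77, SE 0.35, adjusted p = 0.074). The wild-type value was 1.20 without wild-type polysomal replicate 1 and 0.34 without replicate 2, and, with set letters blocked separately in each RNA kind, 0.08. It passed in 4 of 20 alternatives, with adjusted p down to 0.029, namely without wild-type polysomal replicate 1, wild-type total replicate 1, knockout polysomal replicate 1 or knockout polysomal replicate 2. The knockout value ran from -0.19 without knockout polysomal replicate 2 to 0.41 without replicate 1.

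Tjp1 had 14.22, 14.45 and 14.35 on knockout and 14.06 and 13.96 on wild-type polysomal arrays, against 14.50, 14.47 and 14.53 on knockout and 14.72, 14.70 and 14.60 on wild-type total arrays. All polysomal arrays stood below all total arrays. The difference was -0.16 in knockout (SE 0.09, adjusted p = 0.12) and did not pass as deposited, although it passed at -0.40 after quantile normalization (adjusted p = 0.0014). In wild type Tjp1 fell by 0.66 in polysomal relative to total RNA (SE 0.10, adjusted p = 1.4e-04), and it was the 1 gene of the 9 that was lower there.

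Cdh1, the adherens junction cadherin, had 14.45, 14.47 and 14.34 on knockout and 14.23 and 14.51 on wild-type polysomal arrays, and 14.05, 14.17 and 14.24 on knockout and 14.18, 14.22 and 14.00 on wild-type total arrays. Polysomal and total arrays were separate but lay close together. The difference of 0.26 in knockout (SE 0.11, adjusted p = 0.051) and of 0.24 in wild type (SE 0.12, adjusted p = 0.098) did not pass, and the result depended on the setting. In knockout it passed in 6 of 20 alternatives (adjusted p down to 0.019, with 0.32 under equal array medians), and in wild type it passed without wild-type polysomal replicate 1 (0.38, adjusted p = 0.031) and was 0.09 without replicate 2. After quantile normalization it was 0.00 in knockout and -0.25 in wild type. The values of Tjp1 and Cdh1 are high on a scale that ends at 16.7, and how far differences are compressed at that brightness was not tested.

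Epcam had 12.66, 12.91 and 12.69 on knockout and 13.08 and 12.89 on wild-type polysomal arrays. Its total RNA values were 9.42, 10.34 and 9.92 in knockout and 10.25, 9.87 and 9.82 in wild type. The RNA kinds were wide apart and the genotypes overlapped. Polysomal minus total RNA was 2.86 in knockout (SE 0.21, adjusted p = 2.2e-06) and 3.00 in wild type (SE 0.24, adjusted p = 2.0e-06).

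F11r, the junctional adhesion molecule, had 12.95, 12.99 and 12.81 on knockout and 12.87 and 12.97 on wild-type polysomal arrays, against 11.70, 11.95 and 11.83 on knockout and 11.63, 11.53 and 11.56 on wild-type total arrays. The polysomal excess was 1.09 in knockout (SE 0.09, adjusted p = 5.2e-06) and 1.35 in wild type (SE 0.10, adjusted p = 1.6e-06). The total RNA arrays of the genotypes were separate, with knockout higher.

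Bcam, the laminin receptor, was at 9.37, 9.55 and 9.07 on knockout and 9.42 and 9.71 on wild-type polysomal arrays. On the total RNA arrays it was at 1.74, 1.73 and 1.76 in knockout and 1.75 on all 3 wild-type arrays, under the floor. Because the total RNA values lie under the floor, the amount of Bcam message there was not measured, and the size, p and rank of its difference have no meaning as measurements. With limits chosen after its values were seen, 7 of 8085 genes were under 5 log2 on all 6 total arrays and at or above 8 on all 5 polysomal arrays, and with 3 in place of 5 only Bcam was left.

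**Figure D2:**
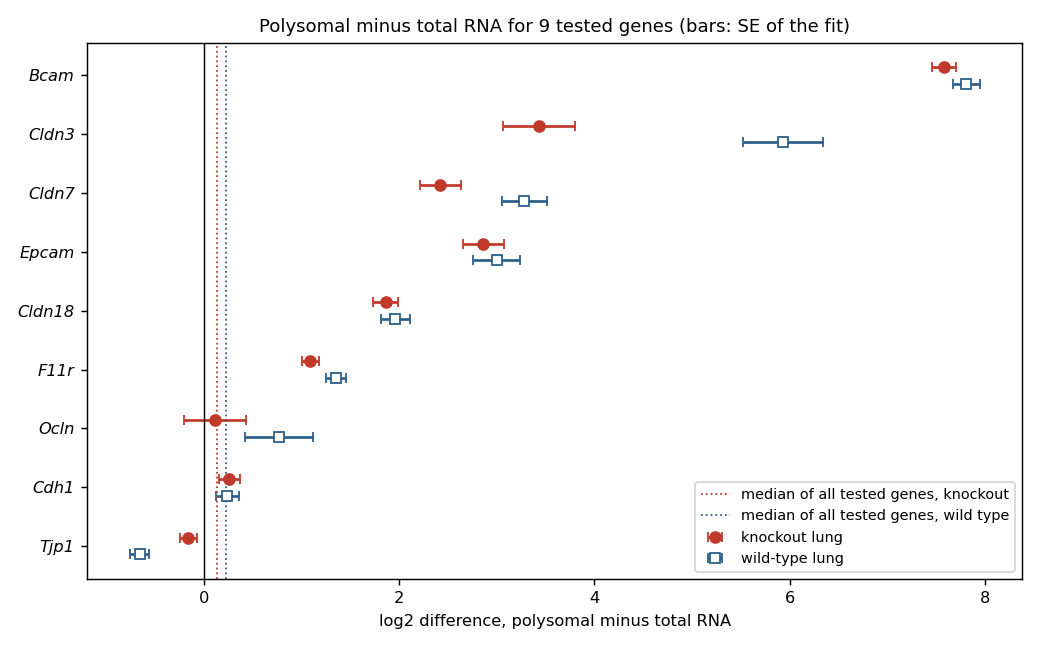
Polysomal minus total RNA in log2 units (horizontal axis) for the 9 tested genes, with circles for knockout lung, open squares for wild-type lung, bars for the SE of the fit and dotted lines for the medians of all 8085 tested genes (0.13 in knockout, 0.22 in wild type). Cldn3, Cldn7 and Epcam lie far to the right, as does Bcam, whose total RNA values are under the floor, Tjp1 lies left of 0, and Cldn3 shows the widest gap between genotypes.

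In total RNA, knockout lung had more Cldn3 message than wild-type lung, and none of the other 8 tested genes passed. Cldn3 was higher by 1.81 log2 units (SE 0.37, n = 3 and 3, limma adjusted p = 0.0081), the 41st highest of 8085 genes, and its knockout arrays stood above its wild-type arrays. This count of 1 of 9 higher and 0 lower stands beside 23.2% of all genes called, 17.2% higher and 5.97% lower. Of all calls in this comparison 74.3% were higher as deposited and 60.6% after quantile normalization. Without Bcam, the median of the other 8 genes was 0.11 against 0.09 over all genes. In whole lung, more cells of a type and more RNA per cell cannot be told apart. The comparisons between genotypes and between RNA kinds share arrays.

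The Cldn3 difference varied in size between the arrays that share a replicate set letter, which the labels do not explain. Within set A the 1 knockout array was 0.90 above the mean of the 2 wild-type arrays, and within set B the mean of the 2 knockout arrays was 3.01 above the 1 wild-type array. Without wild-type total replicate 3, the low array of set B, the difference was 1.32 (adjusted p = 0.0040).

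F11r was at 0.26 (SE 0.09, adjusted p = 0.074) with separate arrays, and Tjp1 at -0.17 (SE 0.09, adjusted p = 0.17), also with separate arrays. Knockout and wild-type total arrays did not overlap for 3 of the 9 genes, Cldn3, F11r and Tjp1, beside 42% of all genes. Cldn7 was at 0.25 (SE 0.21), Ocln at 0.15 (SE 0.32), Cldn18 at 0.07 (SE 0.13), Cdh1 at 0.02 (SE 0.11), Bcam at -0.01 (SE 0.12, at the floor in both groups) and Epcam at -0.09 (SE 0.21), with adjusted p from 0.42 to 0.97. The call for F11r was gained when no filter on low values was used (adjusted p = 0.035).

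In polysomal RNA the scaffold gene Tjp1 was higher in knockout than in wild-type lung, and none of the other 8 genes passed. Tjp1 was higher by 0.32 (SE 0.10, n = 3 and 2, limma adjusted p = 0.048). The count of 1 of 9 higher and 0 lower stands beside 15.1% of all genes called, 8.36% higher and 6.77% lower. The call was kept without wild-type total replicate 3 or knockout polysomal replicate 1 and lost without any 1 of the other 9 arrays. It was also lost when only the 5 arrays compared were fitted (adjusted p = 0.12), when repeated rows were kept once, and with a block by set letter over all arrays (0.086) or within RNA kind (0.053). In all, the adjusted p ranged from 0.018 to 0.21 over all alternatives, while the difference kept its direction at 0.27 to 0.41.

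Cldn3, Cldn7, Ocln, Bcam and Epcam had the lowest values in this comparison, all below 0, and none of them passed as deposited. Cldn3 was at -0.68 (SE 0.41, adjusted p = 0.31) and Cldn7 at -0.61 (SE 0.23, adjusted p = 0.10), both with knockout arrays below wild-type arrays. Bcam was at -0.24 (SE 0.14, adjusted p = 0.29), Epcam at -0.23 (SE 0.24, adjusted p = 0.57) and Ocln at -0.51 (SE 0.35, adjusted p = 0.38). Cdh1 at 0.05 (SE 0.12), F11r at -0.01 (SE 0.10) and Cldn18 at -0.03 (SE 0.15) lay near 0, and the sign of each of these 3 turned under some alternative. Without Bcam, the median of the other 8 was -0.13 against -0.01 over all genes. Knockout and wild-type polysomal arrays did not overlap for 3 genes, Cldn3, Cldn7 and Tjp1, beside 48.9% of all genes. Without wild-type total replicate 2 or 3 Cldn7 passed (adjusted p = 0.044 and 0.040) at the same difference of -0.61.

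**Figure D3:**
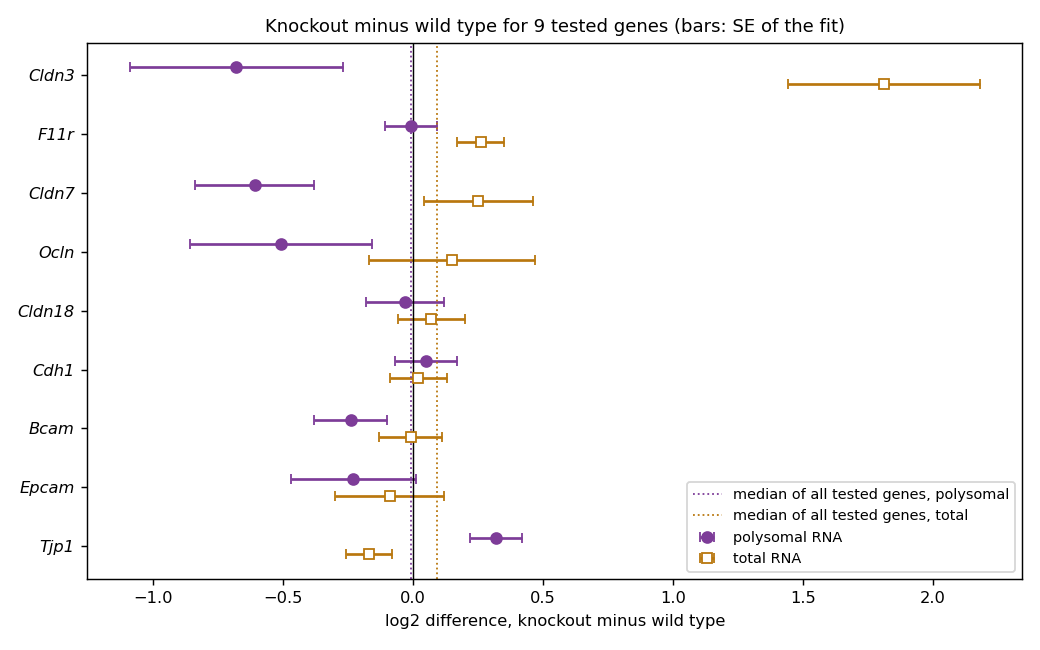
Knockout minus wild type in log2 units (horizontal axis) for the 9 tested genes, with filled circles for polysomal RNA, open squares for total RNA, bars for the SE of the fit and dotted lines for the medians of all tested genes (-0.01 in polysomal, 0.09 in total RNA). Cldn3 is at -0.68 in polysomal and 1.81 in total RNA, Tjp1 at 0.32 and -0.17, and the other genes lie within 0.61 of 0.

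The difference between the polysomal and the total change shows whether knockout and wild type differed unequally in the 2 RNA kinds. Cldn3 and Tjp1 passed, in opposite directions. For Cldn3 the polysomal change lay 2.49 log2 units below the total change (-2.49, SE 0.55, limma adjusted p = 0.014), among the lowest 0.186% of genes. Its rise in total RNA passed and its polysomal difference did not. For Tjp1 the polysomal change lay 0.50 above the total change (SE 0.13, adjusted p = 0.024). The count of 1 higher and 1 lower of 9 stands beside 22.3% of all genes called, 8.06% higher and 14.2% lower.

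Of the other genes Cldn7 was at -0.86 (SE 0.31, adjusted p = 0.073), Ocln at -0.66 (SE 0.48), F11r at -0.26 (SE 0.14), Bcam at -0.23 (SE 0.19, with total RNA at the floor), Epcam at -0.14 (SE 0.32), Cldn18 at -0.11 (SE 0.20) and Cdh1 at 0.03 (SE 0.16), and none passed. Without Bcam, the median of the other 8 was -0.20, against -0.13 over all genes. In the alternatives the Cldn3 value ran from -2.78 to -2.00 and passed in all 19, with adjusted p from 0.0043 to 0.047. Tjp1 ran from 0.44 to 0.61 and failed in 5 of 19, with adjusted p up to 0.079. Those 5 were the block by set letter over all arrays and the fits without knockout total replicate 2, wild-type total replicate 1, knockout polysomal replicate 2 or wild-type polysomal replicate 2.

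Other genes of junctions and adhesion were taken from lists of 129 genes, of which 76 were tested. In polysomal minus total RNA 35 were higher, 16 lower and 25 not passing in knockout, and 37 higher, 19 lower and 20 not passing in wild type, with list medians of 0.25 and 0.26. Of all 8085 genes 39.5% were higher and 25.7% lower in knockout, and 44.5% higher and 27.9% lower in wild type. The corresponding medians of all genes were 0.13 and 0.22. Evpl, Nectin4, Shroom3, Magi3 and Itga3 had total RNA means under the filter limit of log2 5 in both genotypes. Their wild-type polysomal means lay above it, so the filter favoured their calls as higher in polysomal RNA, as for Bcam. Between genotypes 4 were higher and 5 lower in polysomal RNA, beside 8.36% and 6.77% of all genes. In total RNA 10 were higher and 4 lower, beside 17.2% and 5.97% of all genes. In the difference between these changes 3 were higher and 12 lower, beside 8.06% and 14.2% of all genes. The same shares stand beside the counts of each list below.

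Of 16 other claudins listed, 5 were tested, and in knockout none of the 5 passed between polysomal and total RNA (median 0.20). In wild type Cldn23 (1.5, SE 0.28) and Cldn15 (0.66, SE 0.22) were higher in polysomal RNA and Cldn1 was lower (-0.34, SE 0.12). Between genotypes 1 of 5 passed, Cldn23, which was lower in knockout polysomal RNA (-1.11, SE 0.28, adjusted p = 0.028).

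Tight junction and polarity genes split both ways. Of 18 tested, 5 were higher and 6 lower in polysomal RNA in knockout, and 6 higher and 7 lower in wild type. Lsr, the angulin that marks corners where cells meet, was higher by 3.67 in knockout (SE 0.45) and 5.38 in wild type (SE 0.51), whereas the polarity gene Pard6g was lower, at -0.92 in knockout (SE 0.12) and -0.97 in wild type (SE 0.13). In knockout total RNA the polarity gene Pard6a (1.29, SE 0.13), Rab13 (0.64, SE 0.19), a small GTPase of junction traffic, and Amotl2 (0.75, SE 0.23) were higher, and Magi1 (-0.45, SE 0.11) and Lin7c (-0.39, SE 0.09) lower. Lin7c, also a polarity scaffold, was higher in knockout polysomal RNA (0.41, SE 0.10), so that its direction differed between RNA kinds (difference of the changes 0.79, SE 0.13, adjusted p = 0.0059). For the difference of the changes 1 of the 18 was higher and 2 were lower. The lower genes were Pard6a (-1.02, SE 0.2, adjusted p = 0.0091) and Amotl2 (-1.17, SE 0.35, adjusted p = 0.04).

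Of 12 tested adherens junction genes, 8 were higher and 2 lower in polysomal RNA in each genotype. Ctnnd1, which encodes p120-catenin, was at 1.11 in knockout (SE 0.12) and 1.21 in wild type (SE 0.13), and Ctnnb1, beta-catenin, at 1.14 in knockout (SE 0.17) and 1.22 in wild type (SE 0.19). Nectin2 was lower, at -0.95 in knockout (SE 0.12) and -0.53 in wild type (SE 0.13). Jup, plakoglobin, was higher in knockout total RNA (0.76, SE 0.13, adjusted p = 0.0045) and was the 1 adherens junction gene of 12 that passed for the difference of the changes (-0.87, SE 0.20, adjusted p = 0.016). Nectin2 was lower in knockout polysomal RNA (-0.52, SE 0.13, adjusted p = 0.029).

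Of 5 tested desmosome genes 1 was higher and 2 lower in polysomal RNA in each genotype. The higher gene was Evpl, whose direction was favoured by the filter. Between genotypes Pkp2, a plakophilin, was lower in knockout polysomal RNA (-0.37, SE 0.09) and Perp lower in knockout total RNA (-0.53, SE 0.12).

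Among 11 tested genes of basement membrane adhesion, 7 were higher and 1 lower in polysomal RNA in knockout, and 8 were higher in wild type. The laminin chain genes Lamb2 (2.39 in knockout, 3.33 in wild type) and Lamb3 (2.39 and 3.37) and the laminin-binding integrin genes Itga3 (1.71 and 2.26) and Itga6 (1.87 and 2.92) were among them, with SEs from 0.14 to 0.20. Itga3 averaged 4.85 in knockout and 4.64 in wild-type total RNA, under the filter limit of log2 5, so the filter favoured its excess. In knockout total RNA Itga6 (1.39, SE 0.17), Lamb3 (0.69, SE 0.18) and Lamb2 (0.48, SE 0.15) were higher and Itgb1 lower (-0.59, SE 0.18). For Itga6, Lamb2 and Lamb3 the polysomal change lay below the total change (-1.05, -0.94 and -0.98).

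All 9 tested partners and proteases of EpCAM were higher in polysomal RNA in both genotypes, with medians of 2.19 in knockout and 2.71 in wild type. Spint2, an inhibitor of the membrane protease matriptase, was at 2.93 in knockout (SE 0.08) and 3.33 in wild type (SE 0.09). The tetraspanin gene Cd9 was at 2.54 in knockout (SE 0.12) and 3.54 in wild type (SE 0.13). In knockout total RNA 3 of the 9 were higher, among them Prss8 (0.95, SE 0.15), a membrane-anchored serine protease, and Cd9 (0.68, SE 0.12). Epcam itself was at -0.09 there. The difference of the changes was below 0 and passed for 5 of the 9 genes, among them Cd9 (-1.0, SE 0.18) and Prss8 (-0.88, SE 0.22).

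Regulators of the epithelial state lay on both sides of 0. Of 9 tested epithelial transcription factor and splicing genes 3 were higher and 3 lower in polysomal RNA in knockout, and 2 were higher and 4 lower in wild type. Elf3, an epithelial ETS factor, was at 2.05 in knockout (SE 0.14) and 2.48 in wild type (SE 0.16), and Esrp1, a splicing regulator of epithelial cells, at -1.23 in knockout (SE 0.08) and -1.06 in wild type (SE 0.09). Between genotypes Ehf was higher (0.46, SE 0.14) and Elf3 lower (-0.59, SE 0.16) in knockout polysomal RNA, and none of the 9 passed in total RNA. Of 7 tested cadherin repressor and mesenchymal genes, 2 were higher and 2 lower in polysomal RNA in knockout, and 1 was higher and 3 lower in wild type. Fn1, the fibronectin gene, was higher, at 0.86 in knockout (SE 0.17) and 1.67 in wild type (SE 0.19). The cadherin repressor gene Zeb1 was lower in polysomal RNA, at -1.37 in knockout (SE 0.09) and -1.76 in wild type (SE 0.10), as was Snai2, at -1.24 in knockout (SE 0.22) and -2.50 in wild type (SE 0.24). Zeb2, another repressor, was higher in knockout than in wild-type polysomal RNA (0.69, SE 0.15, adjusted p = 0.016).

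**Figure D4:**
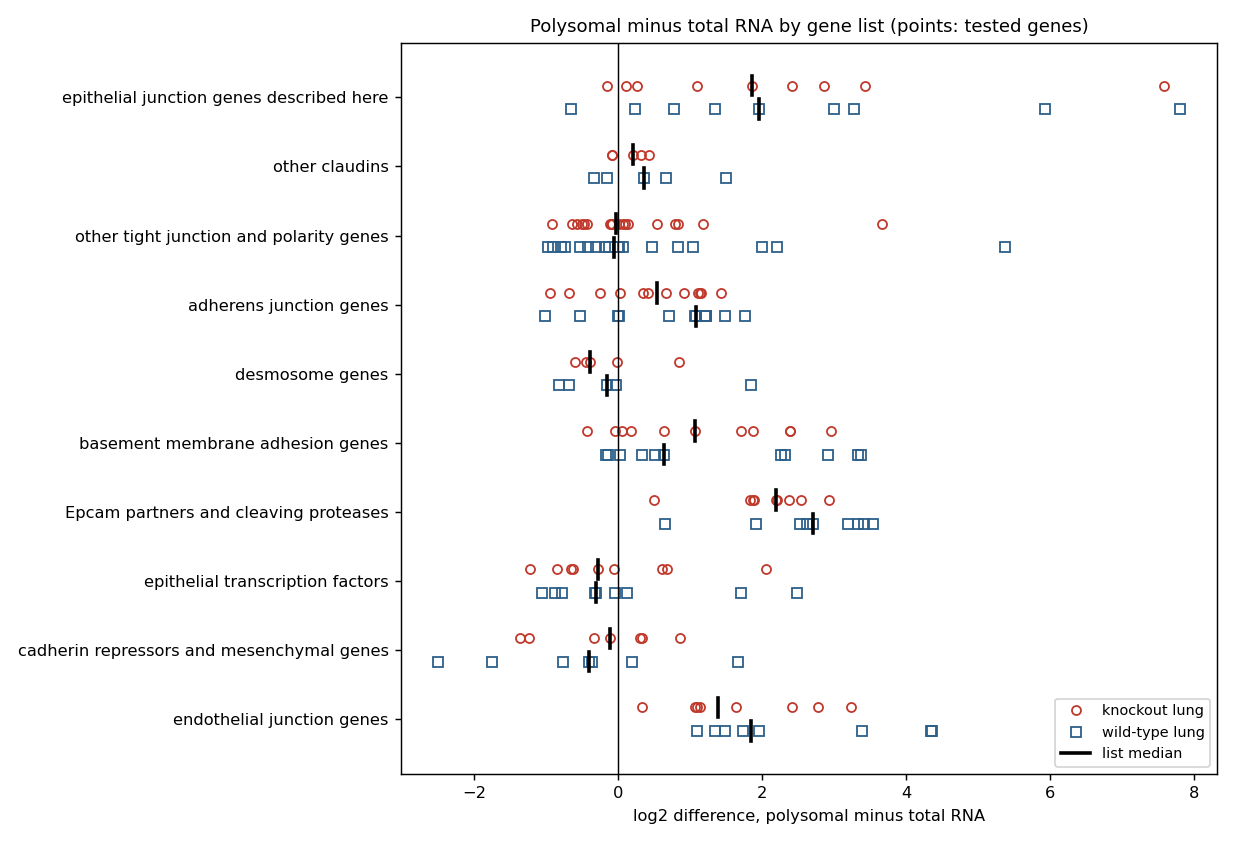
Polysomal minus total RNA in log2 units (horizontal axis) of every tested gene in the epithelial junction genes and 9 related lists, with circles for knockout lung, squares for wild-type lung and black bars for list medians. The medians are 1.86 in knockout and 1.96 in wild type for the 9 epithelial junction genes including Bcam, 2.19 and 2.71 for EpCAM partners and proteases, and -0.39 and -0.16 for desmosome genes.

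The genes most like a member over the 11 arrays were those with the smallest root mean square distance after each gene was centred on its own mean, and they are given for the 4 members whose group means ranged most widely. For Bcam the nearest was Sppl2a at a distance of 0.56 log2 units, with means of 9.66 on knockout and 9.51 on wild-type polysomal arrays and 2.86 and 2.93 on the corresponding total arrays, followed by H2-DMb1 (1.26) and Ltbp4 (1.29). For Cldn3 they were Pld3 (0.21), Lsr (0.31) and Gstt2 (0.39). For Cldn7 they were Ebp (0.14), Dcxr (0.16) and Fkbp4 (0.17), and for Epcam Arrdc1 and Spint2 (both 0.24) and Stxbp2 (0.26). The distances for Bcam were wider than those for the other 3 genes, and they include its total RNA values under the floor. Sppl2a and Stxbp2, like Bcam, had total RNA means under the filter limit of log2 5 in both genotypes. The filter therefore favoured an excess of these genes in polysomal RNA. Lsr and Spint2 also stand in the lists above.

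Markers of lung cell types were present in both genotypes. The 8 tested markers of alveolar type 2 epithelium averaged 14.83 to 14.86 log2 on knockout and 14.87 to 14.90 on wild-type polysomal arrays, and 13.92 to 14.01 on knockout and 13.32 to 13.64 on wild-type total arrays. In total RNA 4 of the 8 were higher in knockout, as were 2 of 7 alveolar type 1 and 2 of 5 club cell markers, while 1 of 8 ciliated cell markers was higher and 1 lower. Over all 8085 genes 17.2% were higher and 5.97% lower in this comparison. The 8 tested endothelial junction and surface genes averaged 9.36 to 9.61 on knockout and 8.74 to 8.76 on wild-type total arrays, and 5 were higher, among them Cldn5, the endothelial claudin (0.96, SE 0.10), while Tek, an endothelial receptor, was at 0.02 (SE 0.10). Jam2 and Jam3 were too dim to test. In total RNA the knockout and wild-type array means of each of these lists did not overlap, except for the ciliated markers. Those were at 6.84 to 6.88 in knockout and 6.53 to 7.15 in wild type. Single genes did not overlap in 42% of all cases, and the share for list means was not computed. Macrophage and fibroblast marker means did not overlap either, and the club cell list was separate at a median difference of 0.05. These marker differences stood beside the Cldn3 rise, and their part in it was not tested.

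In polysomal RNA none of the type 2, club cell or endothelial markers passed between genotypes, 1 of 7 type 1 markers was lower, and 5 of 8 ciliated cell markers were lower in knockout, with list levels of 7.58 to 7.64 against 8.60 to 8.63 in wild type. Over all genes 8.36% were higher and 6.77% lower in this comparison. Dnaic1, among the 5, had a mean above log2 5 only in wild-type polysomal RNA, so the filter favoured its call. The part of these markers in the Cldn3 and Cldn7 values was not tested. Macrophage markers, of which 3 of 9 were lower in knockout polysomal RNA, fibroblast markers (1 higher and 1 lower of 7), lymphocyte markers (0 of 5) and red cell markers (1 higher of 2) were counted the same way. In total RNA 4 macrophage markers were higher and 3 lower, 2 fibroblast markers were higher, and 1 lymphocyte and 1 red cell marker were higher.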

How the data were processed

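Total and polysomal RNA of mouse lung was measured on 11 one-colour Affymetrix arrays. The labels' protocols give 100 ng of RNA per labelling and a kit that amplifies it. The deposited values, on a log2 scale read from their range, were made by the authors with GCRMA per the submitters' processing notes, and the genome build and probe grouping are not given in the sources used here. For arrays, their number limits the precision. Probe sets were named through RefSeq accessions (GRCm38.p6 table), 15228 of 26180 matching 1 gene and 10952 none. Probe sets at log2 5 or more on at least 2 of 11 arrays (13802) were tested with limma 3.58.1 in R 4.3.3, 1 mean per group over all arrays, two-sided, Benjamini-Hochberg over all of them, threshold 0.05. Other settings of filter, normalization, block and arrays were tried as alternatives. Exact repeats of other rows, 7538 in the table, were kept. The fit was tested on simulated data first.

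The members and lists were chosen with earlier results of these data known. All members are named. From a list, up to 4 passing genes per direction by smallest p were eligible to be named, and from a cell type list up to 2. Genes whose calls the filter favoured are named besides these. The values of 1 list gene are not reported here. Whether set letters pair arrays was not settled. Deviations from group means of same-letter knockout and wild-type arrays correlated at -0.05 to 0.12, and those of different letters at -0.12 to 0.05. With 2 wild-type polysomal arrays the deviations mirror each other, so the polysomal correlations cannot decide this. Figures used matplotlib 3.10.9 and Python 3.11.15.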

Additional observations from a re-analysis of the deposited data

Results flagged for a closer look

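For 2 genes the change with knockout differed between polysomal and total RNA by the test of that difference, which is also given above. Cldn3 had a polysomal change 2.49 log2 units below its total change (-2.49, SE 0.55, limma adjusted p = 0.014), and passed in all 19 alternatives. Tjp1 had a polysomal change 0.50 above its total change (SE 0.13, limma adjusted p = 0.024), and failed in 5 of 19 alternatives. No group held the 4 arrays needed to look for a single array far from the others.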

How the results depend on the processing

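For polysomal against total RNA, 6 genes passed in knockout as deposited, against 6 to 7 under the other settings and when 1 array was left out, and 7 in wild type, against 7 to 9. The 1 gene called in total RNA between genotypes stayed 1 without any single array and became 2 without a filter on low values. The 1 gene called in polysomal RNA became 0 when only these 5 arrays were fitted, when repeated rows were kept once, and with a replicate block by set letter over all arrays or within RNA kind, and ran from 0 to 2 without single arrays. The 2 genes called for the difference of the changes became 1 with a replicate block by set letter over all arrays and ran from 1 to 3 without single arrays. The replicate block changed no other count. Where the fit left out a wild-type polysomal array, the lone array left was assumed to vary like the other groups. Quantile normalization gave a median of all genes of 0.04 for polysomal minus total RNA in knockout and 0.06 in wild type, against 0.13 and 0.22 as deposited, and equal array medians gave 0.19 and 0.25.

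Directions turned only for differences that had not passed. Under quantile normalization Cdh1 was at -0.04 and Bcam at 0.03 for knockout minus wild type in total RNA, Cldn18 at 0.02 in polysomal RNA and at 0.00 for the difference of the changes, and Cdh1 at 0.00 in knockout and -0.25 in wild type for polysomal minus total RNA. With equal array medians F11r was at 0.00 for knockout minus wild type in polysomal RNA. With the replicate block Ocln was at 0.00 (over all arrays) and -0.38 (within RNA kind) for polysomal minus total RNA in knockout. Leaving out single arrays, knockout minus wild type in total RNA ran from -0.31 to 0.15 for Epcam, -0.04 to 0.35 for Ocln, -0.05 to 0.07 for Cdh1 and -0.05 to 0.20 for Cldn18. In polysomal RNA it ran from -0.09 to 0.19 for Cdh1, -0.07 to 0.01 for Cldn18 and -0.06 to 0.05 for F11r. The difference of the changes ran from -0.38 to 0.08 for Epcam, -0.12 to 0.17 for Cdh1 and -0.23 to 0.02 for Cldn18, and polysomal minus total RNA in knockout from -0.19 to 0.41 for Ocln. The causes were not tested.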
